A study of Mus musculus with 4 samples.

Results

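This section follows 8 genes of the extracellular matrix and its protease inhibitors, Postn, Fmod, Fn1, Col12a1, Col4a1, Col4a2, Timp2 and Timp3, through single-cell libraries of mouse vaginal epithelium. The genes were chosen by name, with earlier results on ovariectomy in these libraries known, and they are 8 of the 25071 gene symbols in the count matrices. All samples are vaginal epithelium of C57BL/6 mice, profiled by Drop-seq, in which barcoded beads capture polyadenylated RNA of single cells and molecules are counted by unique molecular identifiers (UMIs). There were 2 libraries from wild type mice with their ovaries (WT) and 2 from mice whose ovaries had been removed by surgery (OVX). Each library pooled 5 mice, and the labels leave it unclear whether the duplicates of a group were separate pools, so the spread between them may be technical. No label used here states the mice's age, the time since surgery or the oestrous stage.

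The extracellular matrix under an epithelium has a sheet next to the basal cells, the basement membrane, whose network is built from collagen IV and laminins, and a looser interstitial matrix made mainly by fibroblasts. Matrix is broken down by metalloproteinases, which the TIMP proteins bind and inhibit. In the vagina, ovarian oestrogen drives the epithelium to thicken and stratify, and without ovaries it becomes thin. Most of the 8 genes are textbook products of stromal cells, so each level is given beside that of the few fibroblasts and immune cells in the same libraries.

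The promoters of the 4 genes that stood higher in OVX are shown because these genes were high together in the same libraries. They come from RefSeq (build GRCm38.p6), 5′ to 3′, from 250 bases before to 50 bases after the annotated start. Capitals mark matches, on either strand, to the TATA box (TATAAA), the CCAAT box (CCAAT) and the GC box (GGGCGG). The AP-1 site (TGANTCA), a forkhead site (TGTTTAC) and the oestrogen response palindrome (GGTCA, then TGACC after any 3 bases) were searched as well. No 2 matches overlapped in these windows. Postn has 2 annotated starts, and the one shown lies next to the gene start in GENCODE vM21.
Postn, chr3:54360857-54361156, plus strand: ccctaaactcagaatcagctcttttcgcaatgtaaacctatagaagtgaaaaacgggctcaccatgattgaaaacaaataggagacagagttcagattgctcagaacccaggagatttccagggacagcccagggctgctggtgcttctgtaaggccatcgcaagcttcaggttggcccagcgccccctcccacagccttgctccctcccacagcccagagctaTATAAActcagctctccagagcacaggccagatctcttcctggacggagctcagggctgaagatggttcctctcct
Fmod, chr1:134037004-134037303, plus strand: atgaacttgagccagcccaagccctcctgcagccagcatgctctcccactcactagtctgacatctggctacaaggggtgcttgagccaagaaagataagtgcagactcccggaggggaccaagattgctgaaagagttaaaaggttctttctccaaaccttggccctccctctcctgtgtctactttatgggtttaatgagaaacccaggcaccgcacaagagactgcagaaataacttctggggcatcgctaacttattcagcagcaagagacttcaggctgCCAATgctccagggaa
Timp2, chr11:118355362-118355661, minus strand: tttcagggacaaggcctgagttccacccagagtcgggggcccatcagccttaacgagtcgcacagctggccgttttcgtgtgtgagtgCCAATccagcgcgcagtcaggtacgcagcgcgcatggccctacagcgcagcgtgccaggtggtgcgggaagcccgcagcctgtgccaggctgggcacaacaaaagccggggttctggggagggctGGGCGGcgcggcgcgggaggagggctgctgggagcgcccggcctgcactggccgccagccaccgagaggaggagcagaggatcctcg
Timp3, chr10:86300162-86300461, plus strand: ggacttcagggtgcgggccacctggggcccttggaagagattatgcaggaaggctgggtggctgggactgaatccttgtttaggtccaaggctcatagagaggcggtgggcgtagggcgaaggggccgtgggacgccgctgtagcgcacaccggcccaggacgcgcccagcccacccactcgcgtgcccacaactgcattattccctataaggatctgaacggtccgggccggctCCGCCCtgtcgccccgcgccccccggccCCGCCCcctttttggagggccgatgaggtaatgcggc
The 4 windows differ. The Postn window holds TATAAA at position -26, a motif found in 13.6% of 32544 promoter windows, while the Fmod window holds only CCAAT, found in 37.4%. Timp2 and Timp3 have GC-rich windows, 68.7% and 67.0% against a median of 53.0%, with 1 and 2 matches to GGGCGG, found in 35.9%. The oestrogen response palindrome, found in 0.0707% of all windows, the AP-1 site, found in 7.79%, and the forkhead site, found in 3.66%, had no match in the windows of the 6 genes with an entry, which leaves Fn1 and Col12a1 without one. Such matches describe letters in these windows and show no binding.

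After barcodes under 200 genes or over 20% mitochondrial UMIs were dropped, 2979 and 1987 cells remained in WT and 1573 and 1907 in OVX. Total UMIs ranged from 991112 to 5845107 per library. The median UMIs per kept cell were 1597 and 799 in WT and 435 and 738 in OVX. The median mitochondrial share was 4.00% and 3.85% in WT against 8.97% and 9.69% in OVX, and the nuclear transcript Malat1 took 0.336% and 0.465% of UMIs in WT against 2.50% and 1.81% in OVX. Both run alongside every difference between WT and OVX below, and their part in them was not tested. Pairs of libraries shared 2 to 15 cell barcodes by sequence. Non-epithelial cells were gated by at least 3 UMIs from at least 2 markers of a fixed list: 14 and 8 immune cells in WT, 15 and 25 in OVX, and 0 and 1 fibroblasts in WT, 10 and 17 in OVX. No cell passed the gates for smooth muscle, endothelium, Schwann cells or melanocytes. The other cells are called epithelial. Basal-gated cells held at least 2 UMIs of Krt5, Krt14 or Krt15 and passed no upper-layer gate (2135 and 1247 cells in WT, 983 and 1319 in OVX). Suprabasal-gated cells (747 and 657 in WT, 9 and 8 in OVX) and luminal-gated cells (53 and 41 in WT, 228 and 366 in OVX) held set shares of suprabasal or luminal markers. The WT cells of the luminal gate passed it almost wholly on Krt7 and Wfdc2, with at most 2 UMIs each of the simple keratins Krt8 and Krt18, and were not treated as luminal cells. In OVX the gate rested on 196 and 279 UMIs of Krt18 and 49 and 122 of Krt8 as well.

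Of the 8 genes, 4 were higher in OVX epithelium (Postn, Fmod, Timp2 and Timp3), 1 was lower (Col12a1), and 3 were close to absent from both (Fn1, Col4a1 and Col4a2). Levels are UMIs per 1000000 UMIs of the cells named (CPM), with 95% Poisson intervals that cover counting error only. Because the genes were chosen with this comparison in view, its values are a description. In the edgeR quasi-likelihood fit over all genes, 5 of the 8 passed the filter on low counts and all 5 passed the adjusted threshold of 0.05. The background was 5.21% of 11417 genes called in either direction, 2.54% higher and 2.67% lower in OVX, and nothing is read from the count.

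**Figure D1:**
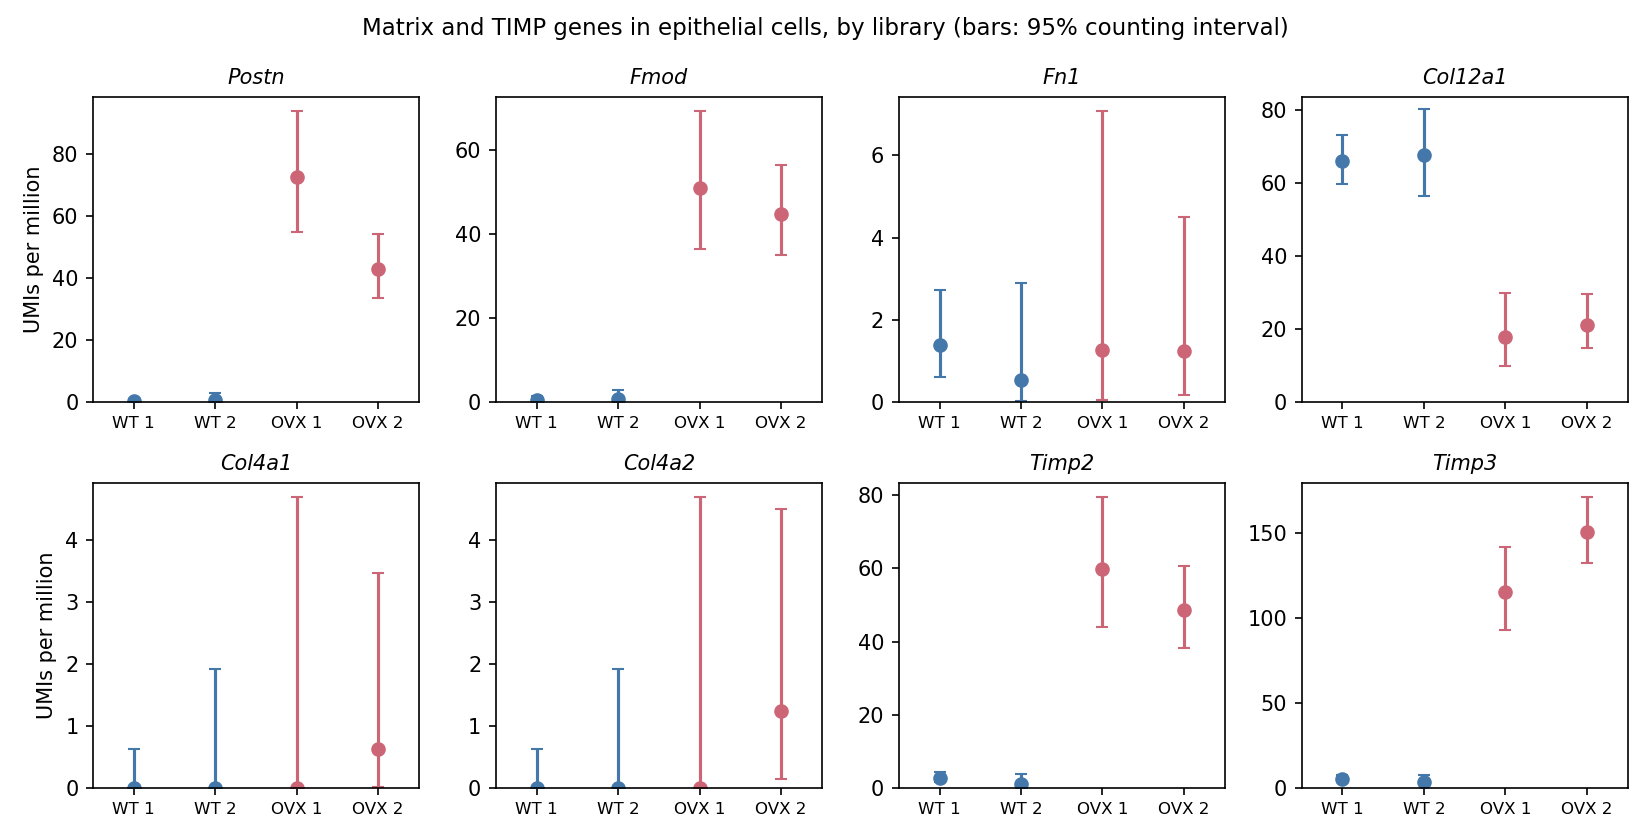
Level of each gene in the epithelial cells of each library, in CPM on a linear axis that starts at 0; points are libraries (WT blue, OVX red) and bars 95% counting intervals. Postn, Fmod, Timp2 and Timp3 sit near 0 in both WT libraries and Col12a1 is the one gene higher in WT, while Fn1, Col4a1 and Col4a2 rest on at most 8 UMIs in any library.

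Postn encodes periostin, a secreted matricellular protein that binds integrins and collagen (GRCm38 chr3:54361109-54391037, plus strand). It had 1 UMI in each WT library, at 0.172 and 0.520 CPM, and 57 and 69 UMIs in the OVX libraries, at 72.5 (54.9 to 93.9) and 42.9 (33.4 to 54.3) CPM. Both OVX libraries lay far above both WT libraries, at 57.7 ± 20.9 against 0.346 ± 0.246 CPM (SD, n = 2 libraries per group). The ratio of pooled counts was 204, with a counting interval of 55.2 to 1698. The fitted log2 fold change, which leans on the prior count, was 7.35, against 6.46 without WT library 1 and 6.68 after thinning.

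Within the OVX epithelium Postn was concentrated in the luminal-gated cells. It stood at 282 (202 to 382) and 186 (143 to 238) CPM there against 9.72 and 2.58 CPM in basal-gated cells, which rests on 5 and 3 basal UMIs. Luminal-gated cells were thus higher in both OVX libraries, by 29.0 times (counting interval 11.5 to 93.9) in library 1 and 72.2 times (23.6 to 359) in library 2. With the library as a block, edgeR put luminal-gated above basal-gated cells by 5.41 ± 0.35 (SE) on the log2 scale (adjusted p = 1.48e-23), in a comparison that called 7.82% of 6560 genes, 4.66% higher and 3.16% lower in luminal-gated cells. Only 1 residual degree of freedom per gene remains in that design, so its p-values lean on spread borrowed across genes. Postn passed under all 6 alternatives run for this comparison. Cells that passed no layer gate held it at 84.2 and 11.3 CPM, from 10 and 1 UMIs.

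A small share of luminal-gated cells carried most of these UMIs. Postn was found in 19 of 228 luminal-gated cells of OVX library 1 and 25 of 366 of library 2, with up to 6 and 7 UMIs in a cell. The 5 cells with most UMIs held 48.8% and 44.4% of the layer's Postn. After each cell was thinned to 400 UMIs, 7.87% (exact binomial interval 4.37 to 12.8) of 178 and 3.88% (2.14 to 6.42) of 361 luminal-gated cells had a Postn UMI, against unthinned shares of 8.33% and 6.83%. Thinned shares in basal-gated cells were 0.318% of 629 and 0.154% of 1302 (unthinned 0.407% and 0.227%). Thinning left out 50 and 5 luminal-gated cells as too shallow, and 354 and 17 basal-gated cells.

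Some other genes stood higher in luminal-gated cells with a Postn UMI than in those without one. The 496 genes compared had at least 5 UMIs in the Postn cells of each library, with no floor in the other cells. The comparison thus took in genes only through the Postn cells. After Postn itself, the 5 genes given here had the highest ratios, by the smaller of the 2 libraries' ratios with a constant added to each CPM. They were picked after the values were seen and stand for no gene group. Agr2, a protein disulphide isomerase of mucus-secreting cells, stood at 475 against 30.6 CPM in library 1 and 347 against 12.8 in library 2. Pglyrp1, which encodes a peptidoglycan recognition protein, stood at 543 against 61.1 and 308 against 19.2 CPM. Rdh10, a retinol dehydrogenase, stood at 882 against 122 and 808 against 118 CPM. Lactoferrin (Ltf) stood at 2034 against 138 and 1732 against 300.4 CPM, and the polymeric immunoglobulin receptor (Pigr) at 814 against 45.8 and 654 against 105 CPM. Ltf and Pigr belong to the luminal gate. Median UMIs were 589 in Postn cells against 567 in the others in library 1, and 1015 against 817 in library 2. Postn cells were also more often positive for Krt8 or Krt18 among all OVX epithelial cells, at 48.3% of 29 against 18.5% of 1519 in library 1 and 64.5% of 31 against 25.5% of 1834 in library 2. Krt8 and Krt18 belong to the luminal gate too. Median UMIs of these 29 and 31 cells were 569 and 994, against 436 and 742 in all epithelial cells of the same libraries. All of this is a description, with no test, of 44 luminal-gated cells and, for the keratins, of the 29 and 31 epithelial cells.

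Timp2 and Timp3 encode inhibitors of matrix metalloproteinases, of which TIMP3 is the one held in the matrix itself and TIMP2 also takes part in the activation of MMP2 by membrane-bound MMP14. Timp2 (chr11:118301069-118355740, minus strand) stood at 2.75 and 1.04 CPM in WT epithelium, from 16 and 2 UMIs, and at 59.8 (43.9 to 79.5) and 48.5 (38.3 to 60.5) CPM in OVX, from 47 and 78 UMIs. The groups did not overlap, and the edgeR fold was 22.4 (log2 fold change 4.48 ± 0.55 SE). The log2 value was 5.49 without WT library 1 and 6.43 after thinning, both with the call kept. Timp3 (chr10:86300372-86349506, plus strand) stood at 5.17 and 3.64 CPM in WT, from 30 and 7 UMIs, and at 116 (93.2 to 142) and 151 (133 to 171) CPM in OVX, from 91 and 243 UMIs. Its groups did not overlap either, with an edgeR fold of 26.6 (log2 fold change 4.73 ± 0.48 SE).

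The 2 inhibitors differed in the layer where they were higher. In OVX, Timp2 stood at 110 and 91.5 CPM in luminal-gated and 42.8 and 37.8 CPM in basal-gated cells (log2 fold change 1.28 ± 0.29 SE, edgeR adjusted p = 0.000826; higher in luminal-gated cells of 2 of 2 libraries). Timp3 had the opposite order, at 54.9 and 103 CPM in luminal-gated against 136 and 163 CPM in basal-gated cells (log2 fold change -0.84 ± 0.23 SE, edgeR adjusted p = 0.0106; lower in luminal-gated cells of 2 of 2 libraries). Both calls were lost in 3 alternatives: without the library block (edgeR adjusted p = 0.346 for Timp2 and 0.933 for Timp3), after thinning to 400 UMIs (0.414 and 0.257) and in DESeq2 (adjusted p = 1 for each). The directions held in each. Cells that passed no layer gate held Timp2 at 75.8 and 11.3 CPM, from 9 and 1 UMIs. They held Timp3 at 109.5 and 192.9 CPM, from 13 and 17 UMIs, in library 2 above the basal-gated value.

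Within basal-gated cells, the layer that both groups held in number, both inhibitors were higher in OVX. These cells are part of the epithelial cells above, with 66 of the 125 Timp2 and 260 of the 334 Timp3 UMIs of OVX. The values are thus a description too. Timp2 stood at 3.38 and 1.66 CPM in WT and 42.8 and 37.8 in OVX, a fold of 13.2 (3.72 on the log2 scale, 4.43 without WT library 1 and 7.65 after thinning). Timp3 stood at 7.24 and 4.99 CPM in WT and 136 and 163 in OVX, a fold of 22.2 (4.47 on the log2 scale, 5.42 after thinning). In WT, Timp3 had 36 UMIs in basal-gated cells and 0 in the suprabasal-gated cells of either library, where 3 UMIs would be 1.93 and 4.54 CPM. After thinning, 4.61% of 629 and 5.76% of 1302 OVX basal-gated cells held a Timp3 UMI, against 0.281% of 2135 and 0.0820% of 1219 in WT (unthinned 5.80% and 11.5% against 1.31% and 0.481%). Up to 5 UMIs of Timp3 occurred in a basal-gated OVX cell. Timp3 overlaps Syn3 on the opposite strand, and Syn3 had 0, 0, 0 and 3 UMIs in the 4 libraries.

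Fmod encodes fibromodulin, a small leucine-rich proteoglycan that binds collagen fibrils (chr1:134037254-134048277, plus strand). It had 2 and 1 UMIs in WT epithelium, at 0.344 and 0.520 CPM, and 40 and 72 in OVX, at 50.9 (36.3 to 69.3) and 44.8 (35.0 to 56.4) CPM. The OVX libraries were close to each other and did not overlap WT; the pooled ratio was 121 (counting interval 40.2 to 593). The fitted log2 fold change, which depends on the prior count, was 6.62 and moved to 8.39 after thinning. Basal-gated cells held 86 of the 112 OVX UMIs of Fmod, at 54.4 and 49.8 CPM. They also held 1679650 of the 2394572 UMIs of all genes in OVX epithelial cells. Cells that passed no layer gate held Fmod at 75.8 and 68.1 CPM, from 9 and 6 UMIs. Luminal-gated cells held 20.6 and 23.6 CPM from 3 and 8 UMIs. Their difference from basal-gated cells (-1.19 ± 0.42 SE on the log2 scale) did not pass (edgeR adjusted p = 0.0702). Fmod was spread over cells, with 23 and 50 basal-gated cells at 1 UMI and 2 and 4 at more.

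Col12a1 encodes the chain of collagen XII, which sits along collagen fibrils and bridges them (chr9:79598991-79718831, minus strand). It was the one gene of the 8 that was lower in OVX, at 66.1 (59.7 to 73.1) and 67.6 (56.4 to 80.2) CPM in WT, from 384 and 130 UMIs, and 17.8 (9.73 to 29.9) and 21.1 (14.6 to 29.6) CPM in OVX, from 14 and 34 UMIs. The groups did not overlap (3.71-fold lower in OVX by edgeR; log2 fold change -1.89 ± 0.41 SE). In WT it was higher in basal-gated cells, 82.3 and 84.8 CPM, than in suprabasal-gated cells, 25.04 and 37.9 CPM (-1.39 ± 0.20 SE on the log2 scale, edgeR adjusted p = 0.000687; lower in suprabasal-gated cells of 2 of 2 libraries), where 11.8% of 10089 tested genes were called and 6.45% were called lower. In basal-gated cells it stood at 17.5 and 24.9 CPM in OVX, 3.99-fold lower than in WT by edgeR, which did not pass (adjusted p = 0.0572). That difference did pass in DESeq2 (adjusted p = 0.0207), and in edgeR with no filter on low counts (0.00569) and without WT library 2 (0.000527). Without OVX library 1 or OVX library 2 its call over all epithelial cells was lost too (edgeR adjusted p = 0.431 and 0.324), as it was with the replicate number as a block (0.119) and after thinning (0.0769), each with a value below 0. The layer call was lost without the library block (edgeR adjusted p = 0.999).

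**Figure D2:**
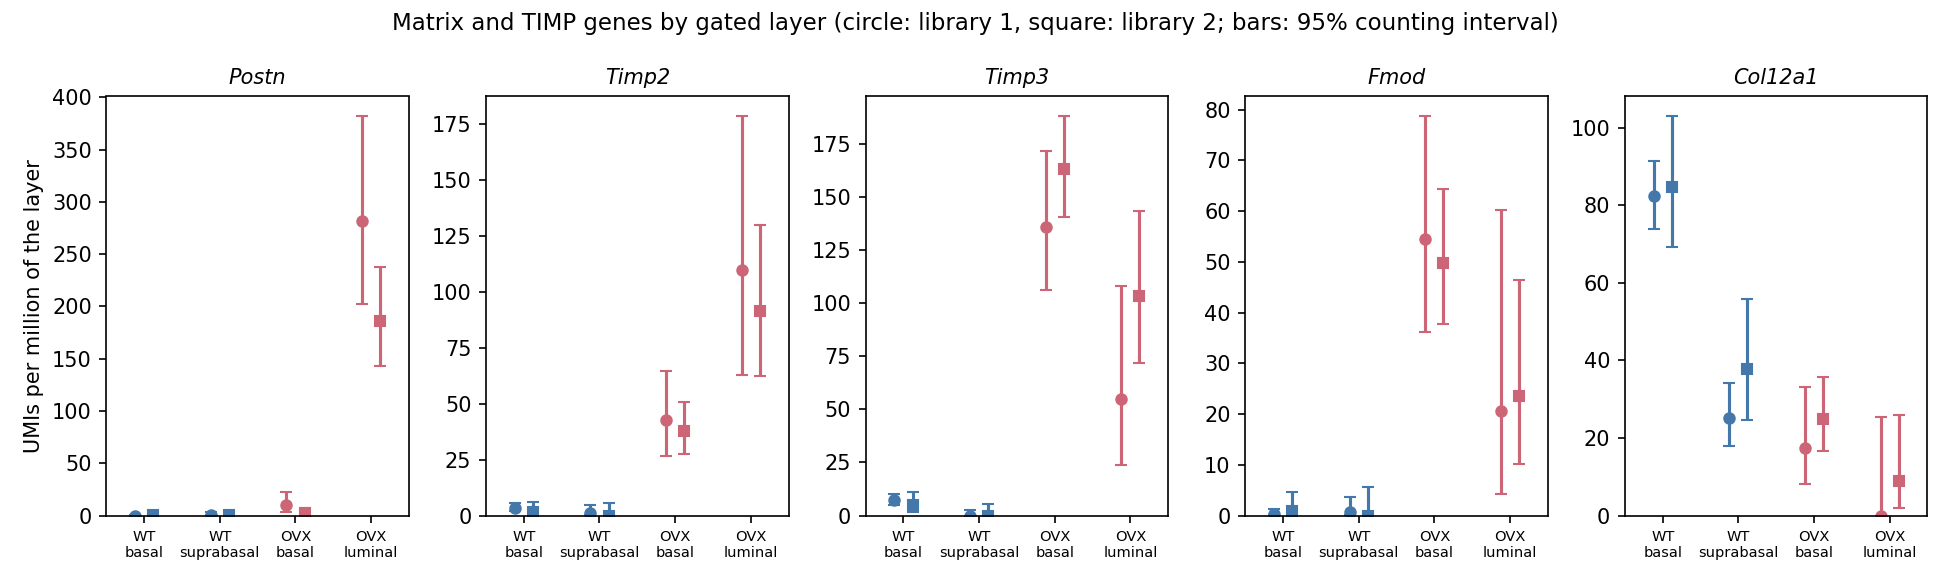
Level of 5 of the genes by gated layer, in CPM of that layer on linear axes that start at 0 (WT blue, OVX red; circles are library 1, squares library 2; bars are 95% counting intervals). Postn is high in OVX luminal-gated cells alone among the layers drawn, and Timp2 is higher in luminal-gated than in basal-gated OVX cells. Timp3 and Fmod are higher in basal-gated than in luminal-gated OVX cells, and Col12a1 is highest in WT basal-gated cells. The Fmod difference between layers did not pass, and the Timp2 and Timp3 calls were lost under some alternatives.

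Over the basal-gated comparison, 4 of the 8 genes passed the filter on low counts, and 3 of those passed the threshold (Fmod, Timp2 and Timp3, all higher in OVX), beside a background of 2.96% of 10199 genes called, 1.19% higher and 1.77% lower. The genes were chosen with earlier results known, and nothing is read from this count either. Without WT library 1 edgeR called 0 genes in that comparison (1997 at an unadjusted p under 0.05), and these 3 were then at adjusted p = 0.104, 0.132 and 0.104. The log2 value of Fmod in basal-gated cells was 6.74, against 5.71 without that library and 7.89 after thinning.

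Fibronectin (Fn1, chr1:71585520-71653200, minus strand), a glycoprotein that links cells to collagen through integrins, was at the limit of detection in epithelium. It had 8 and 1 UMIs in WT and 1 and 2 in OVX, at 1.38, 0.520, 1.27 and 1.24 CPM, and the groups overlapped. In the OVX immune-gated cells it stood at 244 (29.5 to 880.2) and 311 (114 to 676) CPM, from 2 UMIs in 15 cells and 6 in 25. The 22 WT immune-gated cells held 0, with 3 UMIs being 139 and 573 CPM there. Fn1 shares 1.68% of the 50-base words at its transcript ends with other genes; the other 7 genes share 0%.

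The collagen IV chains Col4a1 and Col4a2 form the main network of the basement membrane, and their genes lie head to head on chromosome 8 with annotated starts 21 bases apart. Neither had a UMI in the epithelial cells of either WT library. In OVX, library 1 had 0 of each, and library 2 had 1 of Col4a1 and 2 of Col4a2. Over each group 3 UMIs would be 0.388 CPM in WT and 1.25 CPM in OVX, so a level at or below these was not detectable at this depth. Of the fibroblast-gated cells, 1 UMI of Col4a2 was seen in OVX library 2.

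In OVX the fibroblast-gated cells held Timp2 and Timp3 at levels above those of the basal-gated and luminal-gated cells of the same library. Timp2 stood at 2161 and 1152 CPM, Timp3 at 1681 and 1571 and Postn at 1201 and 314 in the 10 and 17 fibroblast-gated OVX cells. These cells held 5 of 62 and 3 of 72 of the Postn UMIs in kept OVX cells, 9 of 59 and 11 of 94 of Timp2, and 7 of 98 and 15 of 258 of Timp3. For Postn the order against luminal-gated cells was not resolved in OVX library 2, where 3 UMIs give an interval of 64.8 to 918 CPM around 314. Fmod and Col12a1 had 0 UMIs in these cells. The 1 fibroblast-gated WT cell held 1 UMI of Postn and 0 of Timp2 and Timp3. All fibroblast-gated cells are left out of the epithelial values above.

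Fibroblast transcripts outside that gate were scarce. The 10 fibroblast markers summed to 6.20 and 7.80 CPM in WT epithelial cells and 7.63 and 16.8 in OVX. Of the 10, 2 to 5 were detected per library, with Col1a1, Lum and Mfap5 at 0 in all 4. The gate itself keeps the sum low. Dcn, 1 of the 10, stood at 1.03 and 0 CPM in WT and at 6.36 and 9.33 CPM in OVX. It held 6 of 36 and 0 of 15 marker UMIs in WT, and 5 of 6 and 15 of 27 in OVX. The Dcn difference did not pass (edgeR adjusted p = 0.0721). In fibroblast-gated OVX cells 8 Postn UMIs stood beside 537 fibroblast marker UMIs, a ratio of 1.49 per 100. OVX epithelial cells held 126 Postn UMIs beside 33 fibroblast marker UMIs, where the fibroblast ratio would give 0.492. For Timp2 and Timp3 it would give 1.23 and 1.35 UMIs, against 125 and 334 counted, and for Fmod 0 against 112. Of the 29 and 31 OVX epithelial cells with a Postn UMI, 0 held a UMI of any fibroblast marker. Among all OVX epithelial cells only 6 of 1548 and 21 of 1865 held one, so 0 in so few cells decides nothing. The 10 markers also define the gate, which selects cells rich in them on one side and poor in them on the other and so lowers these numbers. The part of stray fibroblast RNA in the epithelial values was not tested.

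**Figure D3:**
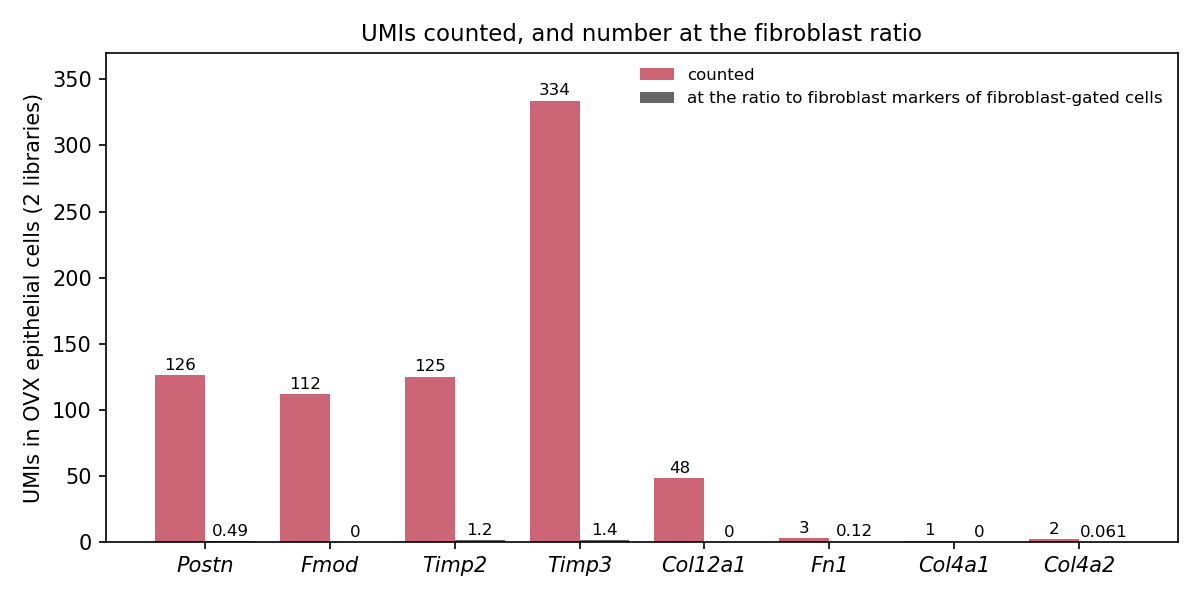
UMIs of each gene counted in OVX epithelial cells of both libraries (red bars), beside the number that the fibroblast marker UMIs in those cells would bring at the ratio found in fibroblast-gated cells (grey bars), on a linear axis from 0. The same markers define the gate, which lowers the grey bars; they reach at most 1.35 UMIs, against 112 to 334 counted for Fmod, Timp2, Postn and Timp3.

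Immune-gated cells serve as a further reference for free RNA. Postn, Fmod, Timp3 and Col12a1 had 0 UMIs in the 40 OVX immune-gated cells, which held 8208 and 19314 UMIs of all genes. Within each library 3 UMIs there would be 366 and 155 CPM, above the epithelial levels of Timp3. Free RNA at those levels was thus not detectable in either library alone. Over both libraries together the limit is lower and was not computed. In the immune-gated OVX cells Timp2 stood at 366 and 259 CPM, from 3 and 5 UMIs. In the barcodes left out by the cell filter, Timp3 stood at 198 CPM in OVX library 1 (38 UMIs in 1427 barcodes) and 62.4 in OVX library 2 (3 UMIs in 93), and Postn at 31.2 and 208 CPM; the fibroblast markers summed to 536 and 20.8 CPM in them. Whether free RNA adds to the epithelial values was not tested.

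Across the 10 sums of a library and layer with at least 30 cells, likeness among the 5 detected genes was graded. Pearson's r of log2(CPM + 10) was 0.93 between Fmod and Timp3. Timp2 was about as close to Postn (0.87) as to Fmod (0.85) and Timp3 (0.83). Postn was less like Fmod (0.49) and Timp3 (0.51), and Col12a1 was negative with each of the other 4 (-0.59 to -0.87). The WT and OVX sums share depth and quality within a library, so these values describe the patterns and carry no test. Among 6633 genes with at least 200 UMIs, Cxcl17 (r = 0.993), Krt19 (0.985) and Serpinb11 (0.964) were most like Postn, of which Cxcl17 and Krt19 are in the luminal gate. Fmod was most like Zbtb38 (0.962), Plpp3 (0.962) and Rps24-ps3 (0.960). Timp2 was most like Gm2694 (0.996), Adh1 (0.993) and Ces1d (0.993), and Timp3 was most like Ccnd2 (0.987), Bcl7a (0.969) and Pdpn (0.968).

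Col12a1 was most like Tyms (0.985), Nusap1 (0.971) and Anln (0.969), genes of DNA synthesis and cell division. Basal-gated cells were also split by 10 cell-cycle genes after thinning to 400 UMIs, a split chosen after these values were seen. In WT library 1 Col12a1 stood at 123 (91.8 to 160) CPM in 1081 cells without a cycle UMI and 75.9 (51.9 to 107) in 1054 cells with one. In WT library 2 the values were 75.8 (46.9 to 116) in 693 cells and 52.3 (26.1 to 93.6) in 526. In neither WT library was the value higher in the cells with a cycle UMI, but the intervals overlapped. They rest on 53 and 32 Col12a1 UMIs in library 1 and 21 and 11 in library 2. A cell thinned to 400 UMIs can be cycling without a cycle UMI. OVX values were 17.1 CPM without and 58.1 with a cycle UMI in library 1, from 4 and 1 UMIs. In OVX library 2 they were 33.5 and 0 CPM, from 16 and 0 UMIs. The part of the cell cycle in the Col12a1 values was not tested.

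Around these genes, companion genes of fixed lists were compared between WT and OVX epithelium as well. Of 134 companion genes 65 were tested, with 4 of the 65 higher and 5 of the 65 lower. These shares are larger than the 2.54% higher and 2.67% lower over all genes tested. The median log2 fold change was -0.56 beside -0.03. The lists were chosen with earlier results known, so nothing is read from these counts. In the small leucine-rich proteoglycan family of Fmod, 2 of 8 were tested and Prelp rose, from 1 UMI in each WT library to 16.5 and 21.8 CPM in OVX, a pooled ratio of 77.5 (counting interval 20.3 to 658). Among interstitial and matricellular genes, 14 of 32 were tested, with 2 higher and 1 lower. Efemp1, which encodes fibulin-3, rose from 5.17 and 4.16 to 92.8 and 79.0 CPM. Ltbp2, a microfibril-associated latent TGF-beta binding protein, had 2 UMIs in WT and 172 in OVX, a pooled ratio of 278 (75.7 to 2312). Sparcl1, a relative of the matricellular protein SPARC, fell from 20.7 and 23.4 CPM to 0 and 0.622 CPM, with 165 UMIs against 1, a pooled ratio of 51.1 (9.04 to 2030).

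In the basement membrane list, 15 of 23 genes were tested, with 1 higher and 2 lower. Npnt, which encodes the integrin ligand nephronectin, rose from 2.07 and 0.520 to 14.0 and 18.0 CPM. Col18a1, which encodes the collagen XVIII chain of basement membranes, fell from 63.2 and 72.8 to 19.1 and 23.6 CPM. Of 7 tested genes of collagen processing, Bmp1, the procollagen C-proteinase, fell from 23.9 and 18.2 to 3.81 and 3.73 CPM. Of 16 tested receptors, the hyaluronan receptor Cd44 fell from 269 and 238 to 85.2 and 84.6 CPM. By edgeR, 0 of 9 tested metalloproteinase genes and 0 of 2 tested further inhibitors passed.

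**Figure D4:**
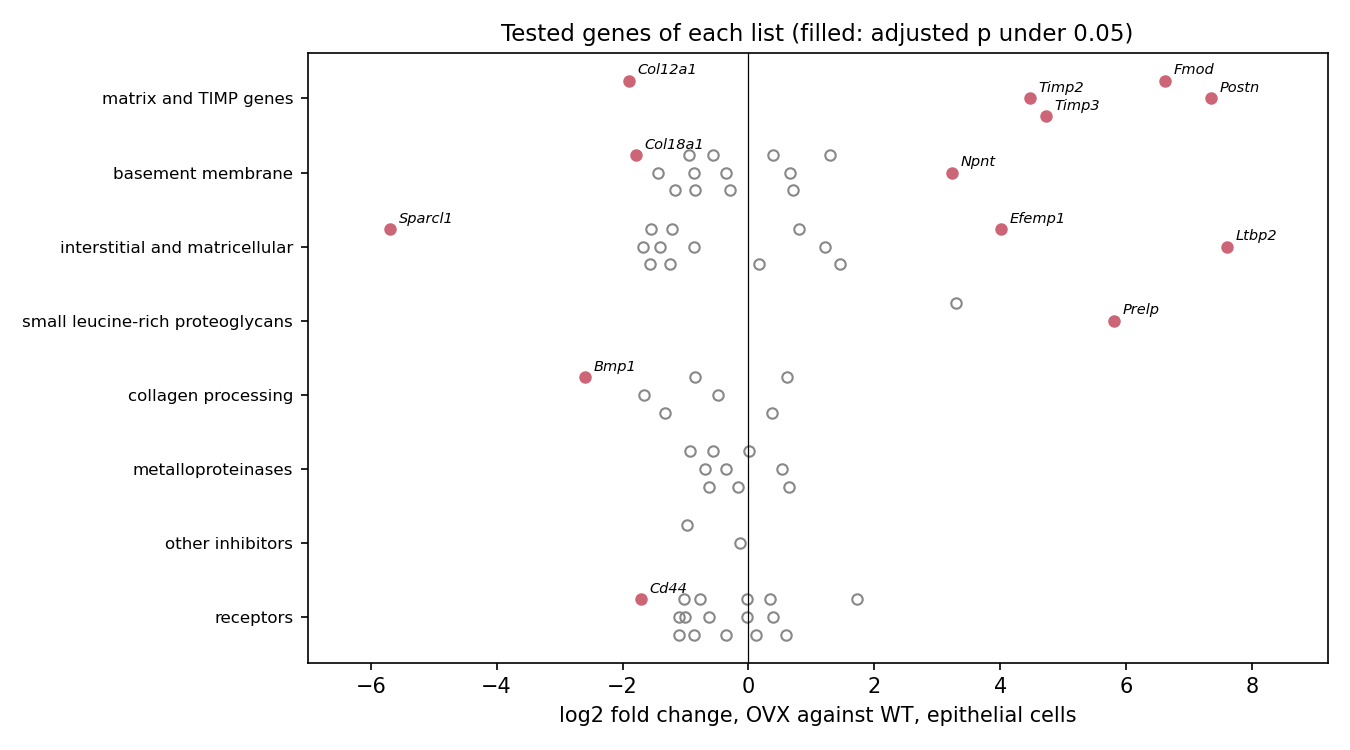
Fitted log2 fold changes of OVX against WT in epithelial cells, with points for tested genes that are reported, by list (vertical positions within a list only separate points); filled points passed an adjusted p of 0.05 and are named. Postn, Fmod, Ltbp2 and Prelp lie far to the right, Sparcl1 lies far to the left, and values of genes with few UMIs in a group depend on the prior count of the fit.

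In WT, 24 of 56 tested companion genes were lower in suprabasal-gated than in basal-gated cells and 3 were higher, beside 6.45% lower and 5.38% higher over all genes tested. Without the library block edgeR called 0 genes in this comparison (402 at an unadjusted p under 0.05), against 337 by DESeq2. The 24 lower genes, from the edgeR fit with the library block, included 7 of 12 in the basement membrane list, such as Col17a1, Col7a1 and Lamb3. They also included 7 of 12 in the interstitial and matricellular list, such as Sparc, Thbs1 and Tgfbi. In OVX, 7 of 37 tested were lower and 3 higher in luminal-gated than in basal-gated cells, beside 3.16% lower and 4.66% higher over all genes tested. Among the lower ones were Col17a1, Lamb1, Sparc and Tgfbi. That comparison called 71 genes by DESeq2 and 23 without the library block, against 513. Col12a1 had the same order in WT, whereas Postn and Timp2 were higher in the luminal-gated cells.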

How the data were processed

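Drop-seq was run on 4 libraries of vaginal epithelium, 2 WT and 2 OVX. The deposited matrices hold raw UMI counts per gene and barcode with no normalization by the authors, from the values. Per the submitters' processing notes, Seurat 2 and build mm10 were used; for the aligner, annotation, strand use and barcode rule, the choice is not given in the sources used here. Gene positions are from GENCODE vM21 (GRCm38), which matched 94.1% of symbols.

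Cells were kept at 200 or more genes and 20% or less mitochondrial UMIs. No doublet caller was run, so doublets remain; cells passing both the suprabasal and luminal gates entered no layer. Suprabasal-gated cells needed 2 UMIs and 0.5% of a cell's UMIs in 9 markers, luminal-gated cells 2 UMIs and 0.2% in 12. UMI counts were summed per library and layer and tested with edgeR 4.0.16 (R 4.3.3; TMM, filterByExpr, quasi-likelihood F-test, Benjamini-Hochberg), without covariates between groups and with the library as a block between layers. DESeq2 1.42.0 was an alternative. The fit of the epithelial comparison was also run on simulated counts, with changes in well-counted genes and the same spread for every gene. That run does not cover genes close to 0 in a group. P-values between groups measure the spread between libraries. With the library as a block, those between layers rest on how the layer difference varies between libraries and on spread borrowed across genes. Named are the 8 genes, and from the companion lists those past the threshold with libraries that did not overlap, up to 20, except 1 gene that is not reported here. The 8 genes and all lists were chosen with earlier results of these data known. Companion lists hold 134 genes: basement membrane, interstitial and matricellular, small leucine-rich proteoglycans, collagen processing, metalloproteinases, other inhibitors and receptors.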

Additional observations from a re-analysis of the deposited data

How the results depend on the processing

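Genes called between OVX and WT numbered 595 in epithelial and 302 in basal-gated cells. They numbered 1318 and 872 with no filter on low counts, 310 and 117 after thinning to 400 UMIs, and 302 to 1879 and 0 to 1460 when single libraries were left out. The count of 0, by edgeR, came without WT library 1 in basal-gated cells, where 1997 genes had an unadjusted p under 0.05. DESeq2 called 715 genes in epithelial cells, 277 higher and 438 lower, against 290 and 305, and 458 in basal-gated cells, where its median log2 fold change was 0.11 against -0.05. With the replicate number as a block the counts were 477 and 331. The deviations of same-numbered libraries had r = -0.571, so a crossed block was added after seeing the data; it called 3405 and 2712. Between luminal-gated and basal-gated OVX cells 513 genes were called, against 71 by DESeq2 (59 higher, 12 lower), 23 without the library block and 173 after thinning. Between suprabasal-gated and basal-gated WT cells 1194 were called, against 337 by DESeq2, 452 after thinning and 0 by edgeR without the library block (402 at an unadjusted p under 0.05). Leaving out a library was not run between layers, since 1 library leaves no spread.

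Fn1, Col4a1 and Col4a2 were not tested in any comparison. The values of the other 5 genes were compared with the main fit under these alternatives, the crossed block included. Of them, 115 kept direction and side of the threshold, 14 lost the call, 4 gained it and 0 reversed. The cause was not tested. OVX library 1 is the shallowest, and values from 5 or fewer UMIs have wide counting intervals.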
